A study of Mus musculus with 8 samples.

Results

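The genes described here are the chemokines and chemokine receptors of mouse colon fibroblasts, taken as every protein-coding gene whose symbol starts with Cxcl, Ccl, Cx3cl, Cxcr, Ccr, Cx3cr or Ackr followed by a number and at most 1 letter. The name pattern took 64 of the 55573 genes in the count files, of which 43 encode ligands and 21 receptors. A total of 57 lie on chromosomes and 7 on unplaced scaffolds, and no read was counted on those 7. The symbol was the sole criterion for membership, but the family itself was chosen with earlier results of these data known.

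The fibroblasts were of C57BL6/J background by their label and grew on plastic in Advanced DMEM F12 with 10% FBS. All cells had received medium conditioned by APTKA, which the labels leave unexplained, so that irradiation was compared within conditioned cells and no unconditioned group is described here. The 4 irradiated libraries (I to IV) came from cells given 3 fractions of 2 Gy, the 4 non-irradiated libraries (I to IV) from cells given none, and collection was 72 h after the first dose. Neither the number of animals or cultures nor the way the fibroblasts were isolated is stated, so that p-values measure the spread between these libraries, which may be technical.

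Chemokines are small secreted or membrane-tethered proteins that guide migrating cells, named after the spacing of their first cysteines (C-X-C, C-C or C-X3-C). CXC ligands with a Glu-Leu-Arg (ELR) motif before the cysteines attract neutrophils through CXCR2, many CC ligands attract monocytes and lymphocytes, and CXCL12 retains cells that carry CXCR4. Fibroblasts of the gut are known as a source of these ligands, whereas most of the signalling receptors are carried by leukocytes, and the atypical receptors (Ackr genes) take up ligands without G protein signalling.

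The upstream sequences of 3 ELR ligand genes of 1 chromosomal cluster are shown first, because Cxcl3 fell after irradiation while Cxcl1 and Cxcl2 did not pass the test. The sequences are the 250 bases before the RefSeq start of each gene (GRCm38.p6, plus strand, 5′ to 3′). Capitals mark matches to an NF-kB type motif (GGG, any 2 bases, then TTTCC) searched on both strands, and in Cxcl3 also to TATAAA, the TATA box letters. The windows are chr5:90785851-90786100 for Cxcl3, chr5:90890995-90891244 for Cxcl1 and chr5:90903649-90903898 for Cxcl2.
Cxcl3: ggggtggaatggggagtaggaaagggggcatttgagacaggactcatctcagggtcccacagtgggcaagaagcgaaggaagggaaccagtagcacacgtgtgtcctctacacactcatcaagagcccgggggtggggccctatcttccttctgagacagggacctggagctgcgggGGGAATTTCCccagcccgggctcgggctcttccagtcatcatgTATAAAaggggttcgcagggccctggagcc
Cxcl1: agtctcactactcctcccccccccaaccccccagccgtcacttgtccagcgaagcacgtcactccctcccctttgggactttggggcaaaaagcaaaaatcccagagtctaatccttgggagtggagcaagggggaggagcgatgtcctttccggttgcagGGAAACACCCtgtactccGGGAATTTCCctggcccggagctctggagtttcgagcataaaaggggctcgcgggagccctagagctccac
Cxcl2: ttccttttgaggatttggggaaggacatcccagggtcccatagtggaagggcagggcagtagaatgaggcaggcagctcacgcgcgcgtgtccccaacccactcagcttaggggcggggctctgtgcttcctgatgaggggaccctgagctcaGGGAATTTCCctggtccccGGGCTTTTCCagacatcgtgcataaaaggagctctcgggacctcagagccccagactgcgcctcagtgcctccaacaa
All 3 windows held the NF-kB type letters between 62 and 97 bases before the start. Of the 14 tested genes with an entry in the promoter table, these 3 were the genes with that motif. Some genes had several promoter windows, so that was 3 of 17 windows (17.6%), where 1.41% of all 32817 promoters held the motif in the same window. The tested genes Ccl2, Ccl7, Cxcl5, Ccl5, Ccl11, Cxcl16 and Ccr10 had no entry and were not searched. Cxcl3 held 1 match, and Cxcl1 and Cxcl2 held 2 each. The Cxcl1 and Cxcl2 windows also hold cataaaagg, which differs in 1 base from the TATAAAagg of Cxcl3 and was not marked. A match describes the letters and not a site that is bound.

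Other letters occurred elsewhere in the family. Among the 14 genes searched, Cxcl10 alone held an interferon response type motif, GAAA repeated after any 2 bases (2.97% of all promoters), and it also held TGANTCA, an AP-1 type motif (6.75% of all promoters). The AP-1 type letters occurred in 1 further gene of the 14, Ccl27a. Of the 17 windows of these genes, 5.88% held the interferon response type letters and 11.8% the AP-1 type letters. TATAAA was found for 6 of the 14 genes, Cxcl3, Ccl8, Ccl25, Cx3cl1, Ackr3 and Ackr4. That was 6 of their 17 promoter windows (35.3%), where 12.4% of all promoters held it. The match began 30 bases before the start in Cxcl3, 32 in Ccl8 and 16 in Ccl25. It began 8 bases before the start in Ackr3, 6 in Cx3cl1 and 185 in Ackr4, so the letters alone do not mark a TATA box. The window of Cxcl12 held none of the 4 motifs.

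Total counts per library ran from 28731227 to 37157216. Mitochondrial rRNA was highest in irradiated I and II, at 15129 and 15263 of every 1000000 counts, against 4178 to 5934 in the other 6 libraries, so results are also given without those 2 libraries where they change. Replicates were unevenly alike by chi-square per degree of freedom over all genes with at least 20 counts in a pair. This value was 5.46 for irradiated I with II and 5.12 for III with IV, but 16 to 27.6 between these pairs. In non-irradiated libraries it was 5.29 for II with IV and 8.6 to 13.9 for the other pairs. Levels are given as CPM, counts scaled with TMM factors to a library of 1000000. All 11 fibroblast markers had means above 1 CPM, from S100a4 at 3.15 and Fap at 3.49 CPM to the collagen genes, among them Col1a2 at 4335 to 5828 CPM. Of the markers of other cells, 10 of 11 leukocyte, 8 of 8 epithelial, 6 of 7 endothelial, 4 of 5 glial and neuronal and 4 of 4 mesothelial genes had means under 1 CPM. The exceptions were Cd68 at 3.59, Kdr at 3.19 and Tubb3 at 3.82 CPM, and over all 8 libraries the pan-leukocyte marker Ptprc had 6 counts, Itgam 1, Tyrobp 0, the epithelial Epcam 4 and the endothelial Cdh5 6. Muscle and pericyte markers were not all near 0: Actg2, an enteric smooth muscle actin, was at 270.0 to 342 CPM and Myh11 at 4.85 to 6.79 CPM, with the other 4 of 6 under 1 CPM. Summed over 11 leukocyte markers, the level was 3.97 to 5.58 CPM in non-irradiated and 4.72 to 6.10 CPM in irradiated libraries.

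Of the 64 genes, 46 had at least 1 count, and 21 passed the filter on low counts and were tested, 16 ligands and 5 receptors. The other 25 with counts had at most 68 counts over all 8 libraries. Levels of different genes are compared per kilobase of annotated exon. On that scale the cells' chemokine RNA was dominated by 2 monocyte attractants, Ccl2 (MCP-1) at 483 and Ccl7 (MCP-3) at 482 CPM per kb, whose ranges over the libraries overlapped. Cxcl5, an ELR ligand, came next at 76.8 CPM per kb and was separated from its neighbours in the order.

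Cxcl1, also an ELR ligand, and Cxcl12 followed at 39.4 and 36.5 CPM per kb with overlapping ranges. Cxcl16, a membrane-tethered ligand of CXCR6, and Cxcl10, an interferon-induced ligand of CXCR3, overlapped at 20.2 and 17.5 CPM per kb. Cxcl2 stood alone at 6.62 CPM per kb. Ccl5, Ackr3 and Ccl8 formed a run of overlapping neighbours from 3.89 down to 2.89 CPM per kb, and Cx3cl1 and Ccl25 overlapped at 1.89 and 1.83. The other 8 tested genes, from Ccl27a to Ccl28, lay at 0.822 to 0.159 CPM per kb, and each overlapped the next. Exon length is the union over transcripts, which understates genes with long rare transcripts, among them Cxcl3 with a retained intron. For Cxcl1, Cxcl2 and Cxcl10, as for Cxcl3, this union covers the whole gene, introns included. Cxcl12 has 8176 exon bases and Cxcl5 1863, and in plain CPM Cxcl12, at 298, stood above Cxcl5, at 143. The order therefore depends on annotated length and is not a firm ranking of expression.

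**Figure D1:**
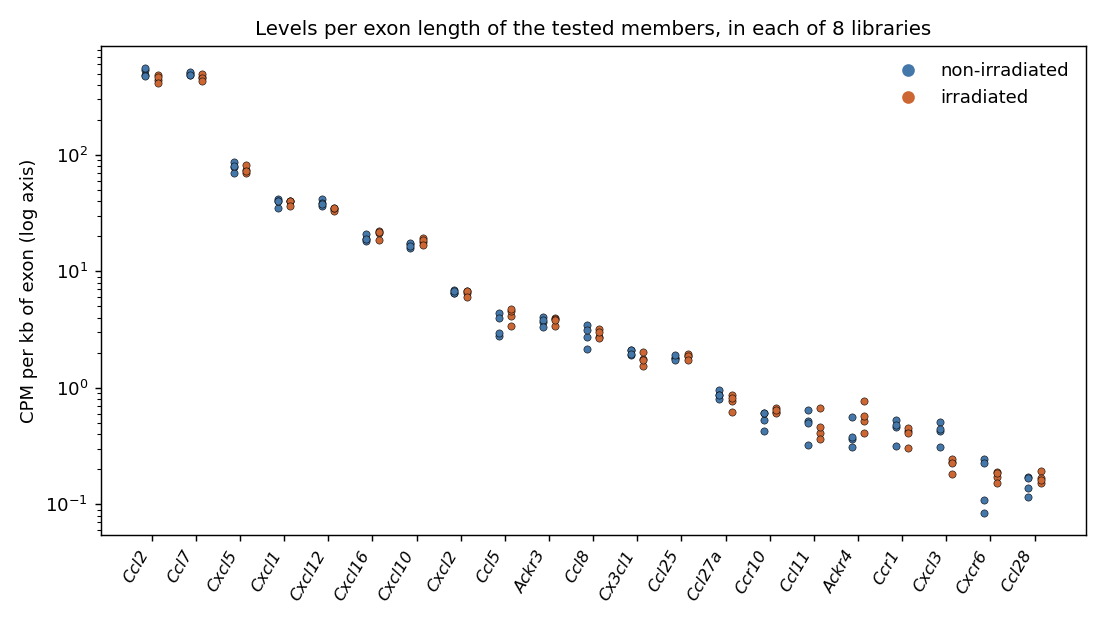
Level of each of the 21 tested genes, ordered by its mean, in CPM per kb of annotated exon on a log axis; each point is 1 library, with non-irradiated libraries to the left and irradiated libraries to the right of each tick. Ccl2 and Ccl7 lie near 480 CPM per kb in both groups, and Cxcl3 is the one gene whose groups separate widely on this axis.

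In irradiated fibroblasts, 3 ligand genes fell, Cxcl3, Cxcl12 and Ccl2, and no ligand or receptor gene rose. The other 18 tested genes did not pass the test. The 3 lower genes were 14.3% of the 21 tested, where 4.15% of all 15259 tested genes were called lower at an adjusted p under 0.05 by edgeR's quasi-likelihood test. None of 21 was called higher, where 2.59% of all genes were. At an unadjusted p under 0.05 in the same test, 2 were higher and 4 lower. The share of all genes at that level was not computed, so these 2 counts show no excess or lack. With DESeq2 the same count of 0 higher and 3 lower was found. The lower count was 2 with RLE factors and 1 to 3 when 1 library was left out. It was 0 without both irradiated I and II and 0 at a threshold of 0.01. With so few genes, the shares describe these genes and were not tested against other sets. The median log2 fold change was -0.0028 over the 21 genes and 0.0009 over all genes tested, and 10 lay above and 11 below 0, where 49.7% of all genes lay below. The median absolute log2 fold change was 0.13 and 0.09. The libraries of the groups were fully separated in CPM for 2 of the 21 genes, both lower, where 8.07% of all genes had irradiated libraries entirely lower and 6.13% entirely higher.

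**Figure D2:**
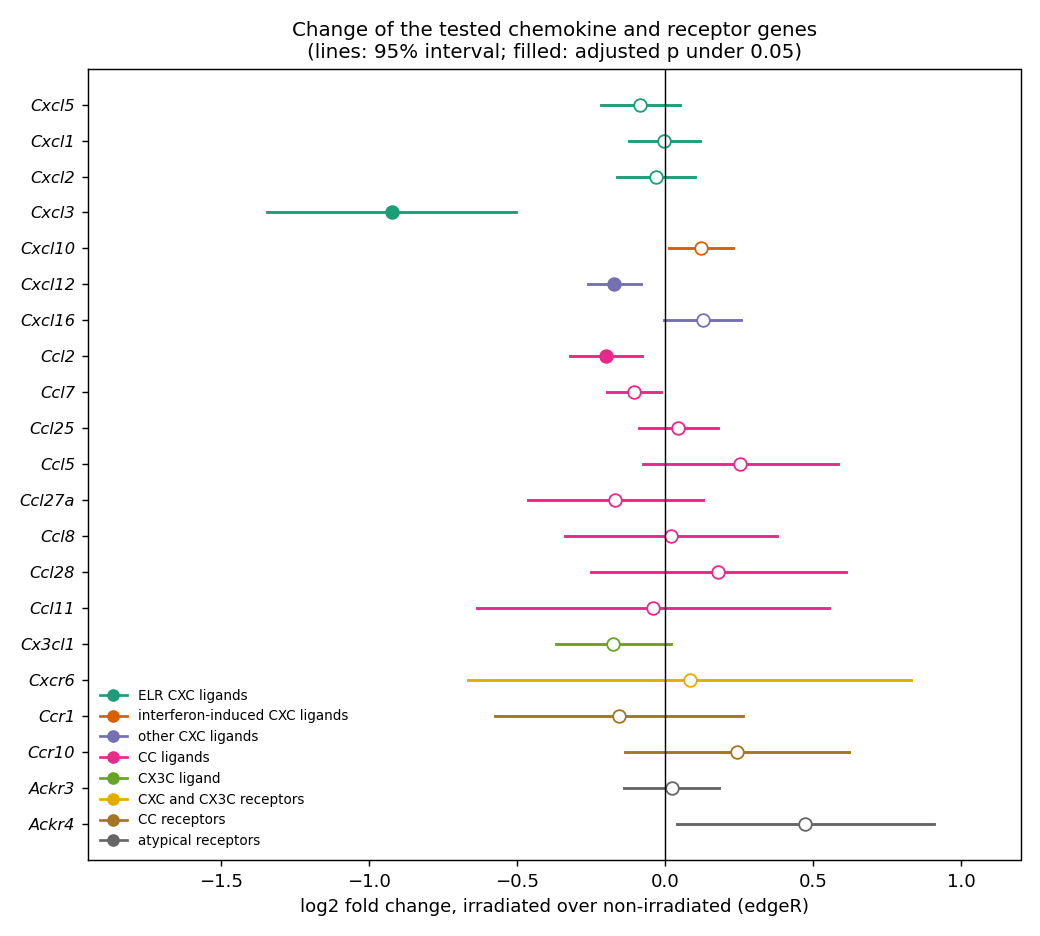
Log2 fold change of irradiated over non-irradiated libraries for the 21 tested genes, coloured by class, with the 95% interval from edgeR as a line; filled circles passed an adjusted p of 0.05. Cxcl3 lies at -0.92, far below the other ELR ligands, and the filled points of Cxcl12 and Ccl2 lie at -0.17 and -0.20.

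Among the ELR ligands, Cxcl3 alone was called. Cxcl3 (ENSMUSG00000029379, chr5:90786103-90789600 of mm10), a CXCR2 ligand also known as DCIP-1, stood at 1.4998, 1.78, 1.08 and 1.54 CPM in non-irradiated libraries I to IV. In irradiated libraries I to IV it stood at 0.802, 0.636, 0.853 and 0.791 CPM. Every irradiated library was lower than every non-irradiated one, with non-irradiated III closest to the irradiated group. The mean was 1.48 ± 0.290 CPM in non-irradiated and 0.771 ± 0.0939 CPM in irradiated libraries (SD, n = 4 each), a fold of 0.527 (log2 fold change -0.92, SE 0.20, 95% interval -1.34 to -0.50, edgeR adjusted p = 0.0118). The level is low: the fall rests on 188 counts in the non-irradiated and 105 in the irradiated libraries. The call was kept whichever single library was left out (adjusted p from 0.00322 to 0.039) and ended when irradiated I and II were dropped together (log2 fold change -0.83, adjusted p = 0.109), which leaves 2 irradiated libraries.

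Cxcl1 (KC), which lies 102 kb downstream of Cxcl3, was at 66.0, 79.1, 75.0 and 76.1 CPM in non-irradiated I to IV and at 75.0, 75.9, 75.7 and 69.0 CPM in irradiated I to IV. The irradiated values lie within the non-irradiated range, and the 95% interval of the log2 fold change ran from -0.12 to 0.12. Cxcl2 (MIP-2), 10.8 kb beyond Cxcl1, was at 13.4, 14.3, 13.5 and 14.1 CPM in non-irradiated and at 13.97, 13.6, 14.04 and 12.5 CPM in irradiated libraries. The groups overlapped, and the log2 fold change was -0.03 (95% interval -0.16 to 0.10, adjusted p = 0.819). Cxcl5 (LIX), the most abundant ELR ligand, lies 24.5 kb before Cxcl3 and was at 147, 161, 130 and 150 CPM in non-irradiated and at 138, 153, 131 and 135 CPM in irradiated libraries. Its groups overlapped too, with a log2 fold change of -0.08 (95% interval -0.22 to 0.05, adjusted p = 0.484). In each group library II was the highest and library III the lowest for Cxcl5.

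Cxcl3 can also be set against these neighbours as a ratio within each library. Cxcl3 counts were 1.44% to 2.27% of Cxcl1 counts in non-irradiated and 0.837% to 1.15% in irradiated libraries, with no overlap. The log2 ratio of Cxcl3 to Cxcl1 differed by -0.92 between the groups, to Cxcl2 by -0.89 and to Cxcl5 by -0.84. The ratios were chosen after the values were seen and share 1 numerator, so they describe the libraries and carry no test. Cxcl15 (lungkine), 4.93 kb after Cxcl3, had 40 counts in the 8 libraries and did not enter the test.

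Sequence similarity limits how far Cxcl3 and Cxcl2 can be told apart. Their coding sequences were identical at 89.7% of 300 aligned bases, and their protein-coding transcripts shared an identical run of 110 bases. Cxcl1 and Cxcl3 were identical at 75.7% of 288 aligned bases, with a longest run of 23. Reads inside the shared run fit both genes, and how such reads were counted is not given in the sources used here, so the level of Cxcl3 is uncertain. Cxcl2 itself did not pass the test in any setting run.

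Among the other CXC ligands, Cxcl12 fell slightly. Cxcl12 (SDF-1, ENSMUSG00000061353, chr6:117168535-117181367), the ligand of CXCR4 and ACKR3, stood at 339, 314, 297 and 313 CPM in non-irradiated I to IV and at 280, 270, 284 and 287 CPM in irradiated I to IV. All irradiated libraries were lower than the lowest non-irradiated one, III. The fold was 0.888 (log2 fold change -0.17, SE 0.04, 95% interval -0.26 to -0.08, edgeR adjusted p = 0.0249). It kept its call in 3 of 8 fits that left out 1 library, those without non-irradiated II or III or irradiated IV. In the other 5 fits the adjusted p ran from 0.05 (without non-irradiated IV) to 0.0834 (without irradiated II). Without both irradiated I and II it was 0.21. The log2 fold change stayed between -0.20 and -0.14 in all 18 alternatives.

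Cxcl16 was at 57.8, 54.6, 63.8 and 57.4 CPM in non-irradiated and at 64.3, 67.7, 66.5 and 56.5 CPM in irradiated libraries. Irradiated I to III lay above every non-irradiated library and irradiated IV among the lower ones (log2 fold change 0.13, SE 0.06, adjusted p = 0.251). The interferon-induced Cxcl10 was at 36.0, 38.5, 39.5 and 36.9 CPM in non-irradiated and at 40.2, 43.7, 42.2 and 38.1 CPM in irradiated libraries, with irradiated I to III above the non-irradiated range (log2 fold change 0.12, 95% interval 0.01 to 0.23, adjusted p = 0.18). Neither passed the test. Of the exon bases of Cxcl16, 18.3% are shared with Zmynd15 on the opposite strand, and 5.91% of those of Cxcl10 with Art3. Over all libraries Zmynd15 had 3138 counts against 16243 for Cxcl16, and Art3 had 98 against 10459 for Cxcl10. The strand setting of the counting is not given in the sources used here. Cxcl9, also an interferon-induced ligand, had 4 counts, all in non-irradiated I. Cxcl11, the other interferon-induced ligand, is annotated as a polymorphic pseudogene and so fell outside the pattern. It was at 1.19 ± 0.319 and 0.957 ± 0.131 CPM (SD, n = 4, adjusted p = 0.483). Cxcl14 and Cxcl17 had 1 and 2 counts over all libraries, and Cxcl13 had none.

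**Figure D3:**
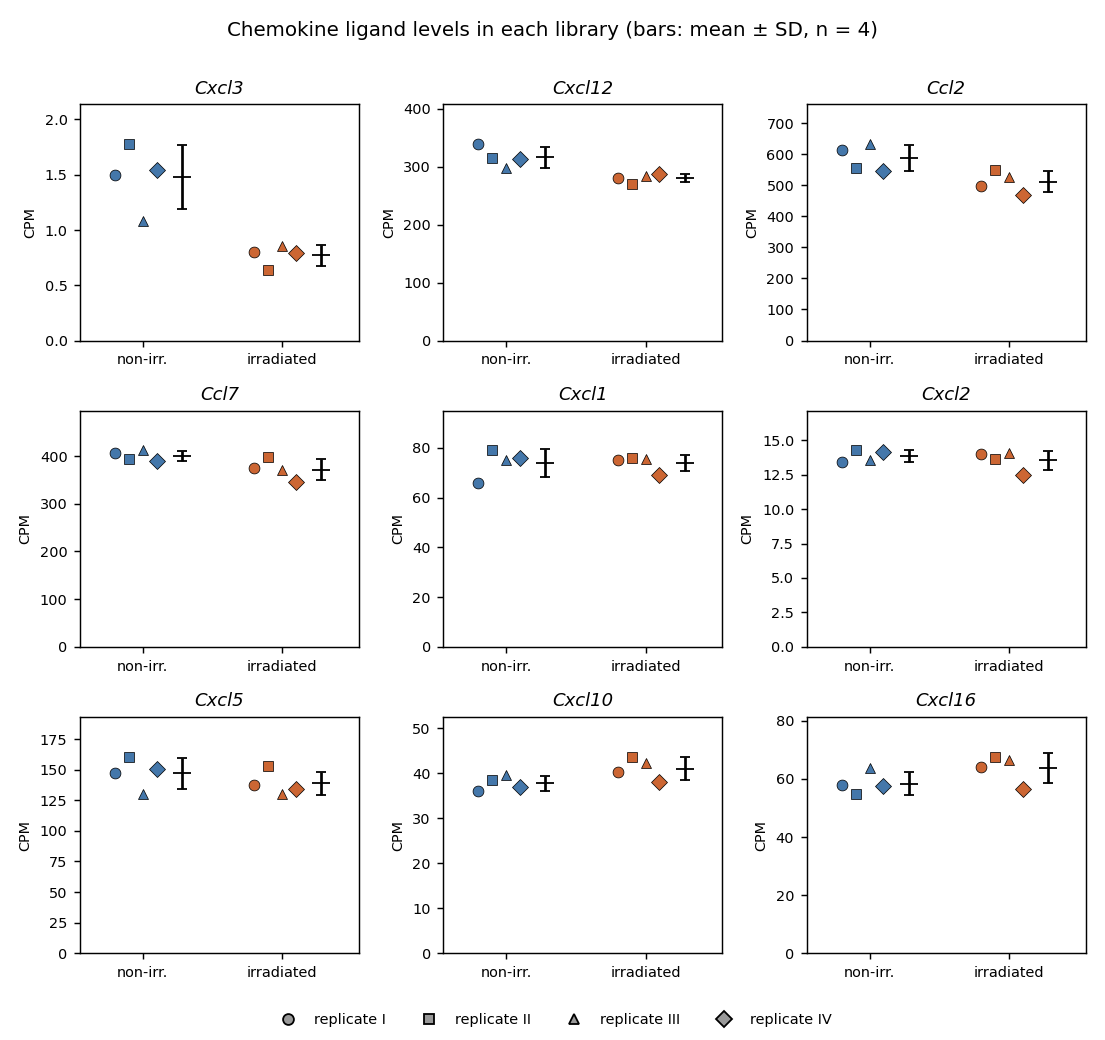
CPM of 9 ligand genes in each library, on axes that start at 0; symbols stand for replicates I to IV and bars for the mean ± SD of 4 libraries. Irradiated libraries lie below all non-irradiated ones for Cxcl3 and Cxcl12, while the groups overlap for the other 7 genes.

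Among the CC ligands, Ccl2 fell by a small amount at the edge of the threshold. Ccl2 (ENSMUSG00000035385, chr11:82035571-82037453), which draws monocytes through CCR2, stood at 615, 557, 634 and 547 CPM in non-irradiated I to IV and at 498, 549, 528 and 470 CPM in irradiated I to IV. Irradiated II lay just above non-irradiated IV, so that the groups overlapped. The fold was 0.870 for Ccl2 (log2 fold change -0.20, SE 0.06, 95% interval -0.32 to -0.08, edgeR adjusted p = 0.0498). The call held in 3 of 8 fits without 1 library, those without non-irradiated II or IV or irradiated II, and it was lost when non-irradiated I (0.133) or III (0.113) was left out, and likewise irradiated I (0.13), III (0.074) or IV (0.156). RLE factors (0.051) and dropping irradiated I with II (0.0996) also ended it, as did dropping non-irradiated I with III, where the log2 fold change shrank to -0.11 (adjusted p = 0.266).

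Ccl7, which lies 8.26 kb from Ccl2 and also binds CCR2, was at 405, 393, 412 and 389 CPM in non-irradiated and at 374, 397, 371 and 345 CPM in irradiated libraries. Irradiated II again overlapped the non-irradiated group, and Ccl7 did not pass the test (log2 fold change -0.11, 95% interval -0.20 to -0.01, adjusted p = 0.168). Ccl2 and Ccl7 shared the order of the irradiated libraries at both ends, with II highest and IV lowest, and in non-irradiated cells III was the highest and IV the lowest for both. Together the pair made up 57.8% to 61.7% of all chemokine ligand CPM in non-irradiated and 56.5% to 59.1% in irradiated libraries. Their coding sequences were identical at 69.1% of 291 aligned bases, with no shared transcript run over 23 bases.

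The other genes of the chromosome 11 group were low. Ccl11 (eotaxin), 10.3 kb from Ccl7, was at 0.536 ± 0.140 and 0.515 ± 0.147 CPM, and Ccl8 (MCP-2) at 1.47 ± 0.289 and 1.49 ± 0.124 CPM in non-irradiated and irradiated cells (SD, n = 4). Ccl12, between them, had 3 counts in all. Neighbours in this stretch therefore differed widely in level, from Ccl2 and Ccl7 to the nearly silent Ccl12. Ccl5 (RANTES), farther along the chromosome, was at 4.26, 2.70, 3.84 and 2.84 CPM in non-irradiated and at 4.01, 4.36, 4.57 and 3.26 CPM in irradiated libraries (log2 fold change 0.25, 95% interval -0.07 to 0.58, adjusted p = 0.37). Ccl5 passed without both non-irradiated I and III, the 2 non-irradiated libraries where it was highest (log2 fold change 0.56, adjusted p = 0.0498).

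Ccl25 (TECK), which guides CCR9-bearing gut lymphocytes, was at 13.3, 13.4, 12.9 and 14.1 CPM in non-irradiated and at 13.9, 14.7, 13.8 and 13.0 CPM in irradiated libraries. These groups overlapped, with irradiated II above every non-irradiated library (log2 fold change 0.04, 95% interval -0.09 to 0.18). Of the exon bases of Ccl25, 2.74% are shared with Elavl1 on the opposite strand, which had 37706 counts over all libraries against 3612 for Ccl25. Ccl27a and Ccl28, ligands of CCR10, were at 2.08 ± 0.143 and 0.721 ± 0.133 CPM in non-irradiated cells and at 1.83 ± 0.252 and 0.823 ± 0.0840 CPM in irradiated cells (SD, n = 4), and neither passed (adjusted p = 0.527 and 0.665). Ccl27a has near copies in the assembly, so that its count is uncertain. Of the CC ligand genes that were not tested, Ccl9 had 45 counts, Ccl20, the CCR6 ligand gene, 42 and Ccl4 32, while Ccl3 and Ccl17 had 5 each and Ccl6 1. Of the 30 CC ligand genes, 8 were tested and 15 had no count in any library, 7 of them on scaffolds. The 8 on chromosomes were Ccl1, Ccl19, Ccl21a, Ccl21b, Ccl22, Ccl24, Ccl26 and Ccl27b. No counts in 1 library is compatible with up to 3 counts, or 0.0812 to 0.105 CPM, which covers counting error only.

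Cx3cl1 (fractalkine), the membrane-tethered ligand of CX3CR1, was at 7.90 ± 0.410 and 6.98 ± 0.809 CPM (SD, n = 4, log2 fold change -0.17, 95% interval -0.37 to 0.02, adjusted p = 0.289). Irradiated III, at 8.04 CPM, lay among the non-irradiated values of 7.47 to 8.27 CPM, and the other 3 irradiated libraries lay below all of them. The gene did not pass the test.

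Receptor RNA was scarce. All 21 receptor genes summed to 17.0 to 20.4 CPM in non-irradiated and 17.6 to 19.9 CPM in irradiated libraries, against 1615 to 1713 and 1442 to 1602 CPM for all ligands. Several G protein-coupled signalling receptors of the abundant ligands were near 0: over all 8 libraries the CCL2 receptor gene Ccr2 had 2 counts, the ELR ligand receptor genes Cxcr2 and Cxcr1 had 3 and 0, the CXCL12 receptor gene Cxcr4 had 4 and the CXCL10 receptor gene Cxcr3 had 1. Cxcr6, the CXCL16 receptor gene, was tested at 0.322 ± 0.160 and 0.337 ± 0.0305 CPM (SD, n = 4, adjusted p = 0.924). Ccr1 was at 1.26 ± 0.261 and 1.13 ± 0.185 CPM and Ccr10 at 0.932 ± 0.149 and 1.10 ± 0.0458 CPM (SD, n = 4), and both overlapped between groups. In bulk RNA, fewer cells that express a gene and less RNA per cell cannot be told apart.

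The atypical receptors held most of the receptor RNA. Ackr3 (CXCR7), which takes up CXCL12, was at 12.2, 13.5, 12.8 and 11.2 CPM in non-irradiated and at 13.3, 13.1, 11.4 and 12.8 CPM in irradiated libraries. The groups overlapped, with a 95% interval of the log2 fold change from -0.14 to 0.18. Ackr4, which takes up CCL19, CCL21 and CCL25, was at 1.67, 3.02, 1.98 and 2.05 CPM in non-irradiated and at 2.79, 2.21, 3.06 and 4.12 CPM in irradiated libraries. It had the highest log2 fold change of the tested genes, 0.47 (SE 0.20, 95% interval 0.04 to 0.91), but the groups overlapped and it was not called (adjusted p = 0.195). Without a low-count filter its adjusted p was 0.0219. Of the exon bases of Ackr4, 8.90% are shared with Acad11 on the opposite strand, which had 12268 counts over all libraries against 691 for Ackr4. The level of Ackr4 is therefore uncertain while the strand setting is unknown. Ackr2 had 22 counts and Ackr1 2 over all libraries. Of the other receptor genes that were not tested, Ccr9, the CCL25 receptor gene, had 68 counts, Cx3cr1, the CX3CL1 receptor gene, 53 and Cxcr5 33. Ccr3 had 11 counts, Ccr7 7, Ccr4 5, Ccr8 4 and Ccr6 0.

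**Figure D4:**
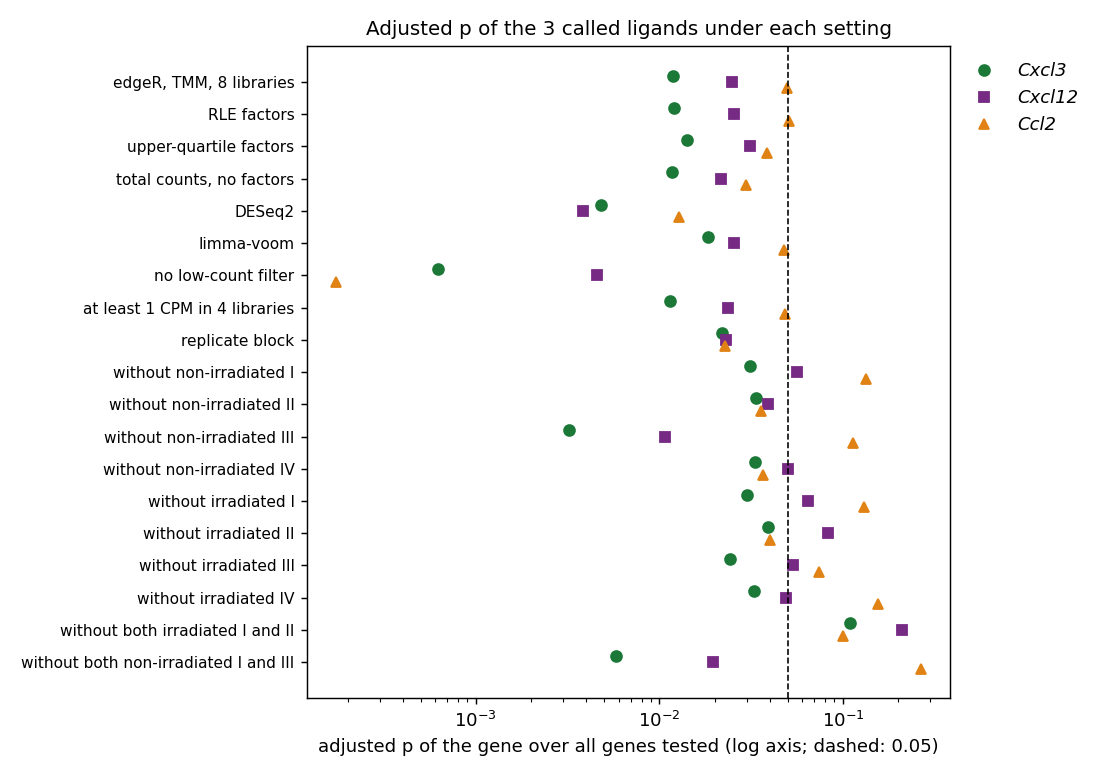
Adjusted p of Cxcl3, Cxcl12 and Ccl2 under each setting, on a log axis, with the 0.05 threshold dashed. Cxcl3 stays left of the line except without both irradiated I and II (0.109), while Cxcl12 ranges from 0.00384 to 0.21 and Ccl2 from 0.000174 to 0.266, and both cross the line in several settings.

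Class sums overlapped between the groups for CC ligands, ELR ligands and atypical receptors. CC ligands together were at 958 to 1068 CPM in non-irradiated and 836 to 971 CPM in irradiated libraries, ELR ligands at 220 to 256 and 217 to 243 CPM, and atypical receptors at 13.3 to 16.8 and 14.5 to 16.9 CPM. The other CXC ligands, mostly Cxcl12, were at 361 to 397 and 338 to 351 CPM, without overlap. All ligands summed to 1666 ± 45.7 and 1526 ± 66.6 CPM (SD, n = 4), also without overlap. The sums are descriptions, dominated by Ccl2, Ccl7 and Cxcl12. Of the 11 fibroblast markers, 2, Col1a2 and Vim, were called lower and none higher (4.15% and 2.59% of all genes), and 9 did not pass, with Dcn, Lum and Pdpn at positive log2 fold changes. Their sum, carried mostly by the collagen genes, was 15800 to 18585 CPM in non-irradiated and 14379 to 15672 CPM in irradiated libraries. The muscle marker Actg2 was also called lower, at 334 ± 10.1 and 291 ± 21.1 CPM (SD, n = 4, edgeR adjusted p = 0.0263), and the 6 muscle and pericyte markers summed to 326 to 349 and 276 to 320.0 CPM. The part of these shifts in the lower Cxcl12 and Ccl2 was not tested.

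Among genes that act before or after chemokine binding, 2 were called. Of 41 tested genes of receptor signal transduction (G protein subunits, arrestins, receptor kinases, phosphoinositide 3-kinases and migration regulators), 1 was higher and 0 lower, 2.44% called against 6.74% of all genes, with a median log2 fold change of -0.01. The one called was Ptk2b (PYK2), a calcium-responsive focal adhesion kinase, which rose from 20.2 ± 1.06 to 24.4 ± 1.01 CPM (SD, n = 4, log2 fold change 0.27, edgeR adjusted p = 0.00918). It missed the threshold once irradiated I and II were dropped. Of 29 tested genes that shed, cleave or bind ligands, such as ADAM proteases, syndecans and heparan sulfate enzymes, 1 was higher and 0 lower, 3.45% called, with a median of -0.03. That count depended on the method: DESeq2 and the fit without a low-count filter each called 4 higher and 2 lower, and limma-voom and upper-quartile factors each called 3 higher. The calls over all genes moved too, from 395 higher and 634 lower to 539 and 775 with DESeq2. Without a filter they were 648 and 798 of 32976 genes. Over all genes, limma-voom called 373 higher and upper-quartile factors 418. Sulf2, an extracellular sulfatase that trims the heparan sulfate on which chemokines are held, rose from 30.9 ± 1.16 to 42.9 ± 1.81 CPM (SD, n = 4, log2 fold change 0.47, edgeR adjusted p = 4.38e-05). Of 7 family genes outside the name pattern, 3 were tested, Ccrl2, Gpr182 and Cxcl11, and 0 were called. Ppbp, Pf4, Xcl1 and Xcr1 did not enter the test. Ccrl2, an atypical chemerin-binding receptor, was at 5.32 ± 0.145 and 5.63 ± 0.458 CPM (SD, n = 4, adjusted p = 0.622), Ppbp had 55 counts, Pf4 7 and Xcl1 0.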

How the data were processed

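The authors deposited raw read counts per Ensembl gene, 1 file per library, without normalization. Per the submitters' processing notes, bcl2fastq 2.20.0.422, STAR 2.5.2a, featureCounts 1.5.0-p1 and mm10 were used; for the annotation release, strand setting and multi-mapping reads, the choice is not given in the sources used here. GENCODE M21 (GRCm38, the mm10 assembly) named 55480 of 55573 identifiers. Tests on the counts used edgeR 4.0.16 (R 4.3.3): TMM factors, filterByExpr (minimum count 10, minimum total 15), and the quasi-likelihood test on 8 libraries with group as the only term, called at a Benjamini-Hochberg adjusted p under 0.05 over all 15259 genes. SE and interval follow from the F statistic. The steps were tested on simulated data. The genes of the name pattern are accounted for by value or count, apart from an item not reported here; called genes and those with a mean of at least 10 CPM are given by library, and from each pathway list the called genes. The genes and lists were chosen with earlier results of these data known. Alternatives used limma 3.58.1 and DESeq2 1.42.0. Motifs were searched in RefSeq promoters (GRCm38.p6), which matched 14 of the 21 tested genes.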

Additional observations from a re-analysis of the deposited data

Results flagged for a closer look

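Cxcl1 in irradiated IV, at 69.0 CPM, lay apart from the other irradiated libraries, which ranged from 75.0 to 75.9 CPM: its gap to the nearest was 0.865 of the group's range, above Dixon's 95% critical value for 4 samples. It was the sole such value among 42 groups of 4 examined, where chance gives about 5%.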

How the results depend on the processing

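Among the chemokine and receptor genes, the 0 higher and 3 lower calls became 0 and 2 with RLE factors and stayed 0 and 3 with upper-quartile factors, total counts, DESeq2, limma-voom and at least 1 CPM in 4 libraries. Without a low-count filter 1 was higher (Ackr4) and 3 lower. Without both non-irradiated I and III 1 was higher (Ccl5), and without both irradiated I and II 0 were lower, settings chosen after seeing the data, as was scaling by total counts. At a threshold of 0.01, 0 were lower. Leaving out 1 library gave 0 higher and 1 to 3 lower, with 1 lower without non-irradiated I, irradiated I or irradiated III.

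Whether the numerals I to IV pair the libraries is not stated in the labels and was not settled here. Deviations of same-numbered libraries correlated at 0.025, -0.033, 0.275 and 0.147 for I to IV. Of the 8 libraries, 3 correlated best with their own number. With the replicate numeral as a block, 0 chemokine and receptor genes were higher and 3 lower, 1 and 0 transduction genes, and 2 and 1 ligand processing genes. Over all genes the block gave 550 higher and 802 lower.

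The 1 higher transduction gene became 0 without both irradiated I and II and stayed 1 in the fits without 1 library. Higher ligand processing genes numbered 3 with upper-quartile factors, limma-voom, at least 1 CPM in 4 libraries and with non-irradiated I and III both left out, and 4 with DESeq2 and without a low-count filter. Lower ones numbered 2 with total counts, DESeq2, no filter and with non-irradiated I and III both left out. Leaving out 1 library gave 1 to 3 higher and 0 to 1 lower. Over all genes, 395 higher and 634 lower calls became 648 higher without a filter, 295 lower without both irradiated I and II, 140 higher and 296 lower at 0.01, and 221 to 402 higher and 415 to 611 lower without 1 library. The cause of these shifts was not tested.

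Of 372 refitted log2 fold changes, 332 kept direction and side of the threshold, 15 lost a call, 2 gained one and 23 changed sign, all of the last in genes never called. Cxcl1 went from -0.0028 to 0.0009 with upper-quartile factors, 0.0004 without a filter and 0.0013 with at least 1 CPM in 4 libraries. Without both irradiated I and II, Ackr3 was at -0.0458, Ccl25 at -0.0011 and Ccl8 at -0.0104, while with non-irradiated I and III both left out Ccr1 was at 0.012 and Cxcr6 at -0.43. Without 1 library, Cxcl1 ranged from -0.0536 to 0.0321, Cxcl2 from -0.0503 to 0.005, Ackr3 from -0.0242 to 0.0693, Ccl8 from -0.0953 to 0.114, Ccl11 from -0.25 to 0.11 and Cxcr6 from -0.17 to 0.335. The 25 genes that had counts but were not tested had at most 68 counts each; depth was not varied.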
